A study of Homo sapiens with 3 samples.

Results

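The genes described here are 40 genes of sugar breakdown and of the cell's answer to low oxygen, taken by symbol from a table of 60664 gene identifiers. They comprise 26 glycolysis genes (glucose transporters, glycolytic enzymes, fructose 2,6-bisphosphate enzymes, lactate dehydrogenases, monocarboxylate transporters and pyruvate dehydrogenase kinases), 12 other genes known to respond to hypoxia-inducible factor (HIF), and 2 HIF alpha subunits. All 40 were found in the table, and 38 belonged to the 14792 genes called measured, those with a scaled level (CPM, counts per 1e6 counts) of at least 1 in at least 1 library. EGLN3 and CA9 did not.

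RNA was sequenced from Caco-2 cells, an established line from a human colon carcinoma that can form an enterocyte-like layer, labelled WT in all groups. One group received 30 µM polydatin for 2 h and then polydatin together with 3% dextran sulfate sodium (DSS) for 8 h. Another received DSS alone at the same strength and for the same time, and control cells received neither agent. Polydatin is a plant stilbene, resveratrol carrying a glucose, and DSS is a sulfated polysaccharide that injures the intestinal lining and is used to provoke colitis in animals. The title of the series names ferroptosis as its subject, so the glycolysis and HIF genes are not the named targets of the study.

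Glycolysis splits glucose into pyruvate, which is either reduced to lactate and exported or oxidised in mitochondria. HIF is a transcription factor made of an alpha and a beta subunit. Prolyl hydroxylases mark the alpha subunit for destruction when oxygen is present, and in low oxygen the surviving factor binds short elements with an RCGTG core and raises transcription of glucose transporters, glycolytic enzymes, VEGFA and mitophagy receptors. The same genes also answer to other regulators, among them MYC, so their RNA levels alone do not report HIF activity.

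The start-site windows of SLC2A1, LDHA and ENO1 (called lower in DSS with polydatin against DSS), ENO2 (called higher there) and BNIP3 (called higher than control in both treated libraries) are shown to set the core letters beside the data. Each runs from 250 bases before to 50 bases after the start of the RefSeq gene model on GRCh38.p14, is written 5′ to 3′ along the gene, and has every ACGTG or GCGTG, or their reverse complements CACGT and CACGC, in capitals. SLC2A1 lies at chr1:42958819-42959118 on the minus strand, LDHA at chr11:18394313-18394612 on the plus strand, ENO1 at chr1:8878637-8878936 on the minus strand, ENO2 at chr12:6914330-6914629 on the plus strand and BNIP3 at chr10:131981874-131982173 on the minus strand.
SLC2A1: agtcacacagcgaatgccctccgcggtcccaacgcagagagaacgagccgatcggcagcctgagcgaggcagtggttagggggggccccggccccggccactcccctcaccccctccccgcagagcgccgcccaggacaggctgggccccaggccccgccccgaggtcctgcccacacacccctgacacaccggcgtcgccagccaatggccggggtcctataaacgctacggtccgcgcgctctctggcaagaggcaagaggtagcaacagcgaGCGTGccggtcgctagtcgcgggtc
LDHA: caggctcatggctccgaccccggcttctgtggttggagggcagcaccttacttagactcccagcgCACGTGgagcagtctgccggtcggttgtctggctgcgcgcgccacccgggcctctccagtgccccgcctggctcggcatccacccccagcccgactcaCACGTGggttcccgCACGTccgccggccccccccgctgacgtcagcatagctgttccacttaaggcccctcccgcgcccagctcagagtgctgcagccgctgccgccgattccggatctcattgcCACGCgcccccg
ENO1: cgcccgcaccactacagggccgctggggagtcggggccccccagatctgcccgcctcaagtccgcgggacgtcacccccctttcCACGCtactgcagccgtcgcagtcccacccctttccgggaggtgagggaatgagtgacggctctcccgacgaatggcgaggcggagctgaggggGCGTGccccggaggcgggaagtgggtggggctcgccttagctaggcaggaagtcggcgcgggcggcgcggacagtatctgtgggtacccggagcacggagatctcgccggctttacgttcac
ENO2: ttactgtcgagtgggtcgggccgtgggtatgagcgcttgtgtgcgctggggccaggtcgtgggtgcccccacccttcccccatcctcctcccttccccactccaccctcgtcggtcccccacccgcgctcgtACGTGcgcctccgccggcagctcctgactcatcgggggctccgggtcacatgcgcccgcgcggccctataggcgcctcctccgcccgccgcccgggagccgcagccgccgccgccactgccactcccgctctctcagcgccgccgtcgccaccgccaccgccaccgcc
BNIP3: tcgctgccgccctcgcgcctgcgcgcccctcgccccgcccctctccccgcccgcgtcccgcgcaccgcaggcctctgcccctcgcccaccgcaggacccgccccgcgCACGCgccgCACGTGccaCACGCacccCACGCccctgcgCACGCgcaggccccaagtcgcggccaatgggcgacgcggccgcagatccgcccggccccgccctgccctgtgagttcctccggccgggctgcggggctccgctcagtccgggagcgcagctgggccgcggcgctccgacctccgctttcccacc

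The LDHA window held 5 matches to ACGTG and 1 to GCGTG, and the BNIP3 window 2 and 4. The ENO1 window held 2 matches to GCGTG, the SLC2A1 window 1 match to GCGTG and the ENO2 window 1 match to ACGTG. The palindrome CACGTG reads as ACGTG on both strands and was counted on each. Of the 40 members, 34 had a window, and SLC2A3, PFKFB2, SLC16A1, BNIP3L, VEGFA and NDRG1 had none. ACGTG or GCGTG stood in 25 of the 34 windows (73.5%), against 13213 of 27305 windows of all genes (48.4%). By group, 16 of 23 glycolysis windows (69.6%) and 7 of 9 windows of the other HIF-responsive genes (77.8%) held either core. Taken alone, ACGTG stood in 39.1% of glycolysis, 55.6% of other HIF-responsive and 21.6% of all windows. GCGTG stood in 52.2%, 33.3% and 36.3% of the same windows. The HIF-responsive genes were listed as known to respond to HIF, and HIF also raises transcription of glucose transporters and glycolytic enzymes. The shares of either group, and of all members, are therefore no independent result. A match is a string of letters and not a shown binding site, and these windows leave out elements that lie farther away.

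The libraries held 16667622 counts for DSS with polydatin, 18825914 for DSS and 18695613 for control, so that 1 CPM stood for between 17.4 and 18.5 counts. There was 1 library per group, so no difference has a replicate check and no test of the treatments was possible. Each ratio given compares libraries scaled by TMM factors, and its range in parentheses is an exact 95% interval for counting error only. A gene is called higher or lower when its ratio is at least 1.5-fold either way and the interval excludes 1. Of 12 epithelial markers, 10 stood at 1 CPM or more in every library, while CDX1 was at 0 and KRT20 stayed below 1 CPM. Their summed level was 7311 CPM in DSS with polydatin, 9107 CPM in DSS and 7589 CPM in control. Of 7 leukocyte markers, 2 stood at 1 CPM or more in control and 3 in each treated library, while PTPRC and MS4A1 had no counts in any library. Together the leukocyte markers came to 7.34 CPM in DSS with polydatin, 9.82 CPM in DSS and 4.74 CPM in control. The 8 fibroblast markers summed to between 55.0 and 68.2 CPM and the 4 endothelial markers to between 13.5 and 24.9 CPM.

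Summed over the 26 glycolysis genes, RNA made up 0.996% of counts in DSS with polydatin (0.991 to 1.00), 1.25% in DSS (1.24 to 1.25) and 1.02% in control (1.01 to 1.02). The 12 HIF-responsive genes made up 0.132% in DSS with polydatin (0.131 to 0.134), 0.119% in DSS (0.118 to 0.121) and 0.0669% in control (0.0657 to 0.068). Both sums were therefore higher in DSS than in control, but with polydatin added the glycolysis sum lay slightly under the control share while the HIF-responsive sum lay above the DSS share. On the TMM scale that last order rested on VEGFA. There the HIF-responsive genes summed to 1265 CPM in DSS with polydatin, 1211 CPM in DSS and 688 CPM in control. Without VEGFA they summed to 752 CPM, 785 CPM and 463 CPM in the same libraries. As a share of counts, the sum without VEGFA stayed slightly higher in DSS with polydatin than in DSS. The epithelial marker sum, most of it KRT8 and KRT18, was also highest in DSS and lowest in DSS with polydatin, and its part in the result was not tested. That order held for 5 of the 10 measured markers. SI, the brush border sucrase, had 8.54 CPM in DSS with polydatin, 9.28 CPM in DSS and 47.0 CPM in control, and CDX2, an intestinal transcription factor, had 78.3 CPM, 118 CPM and 147 CPM. CDH1 and ALPI were highest in DSS with polydatin. In bulk RNA, fewer cells of a type and less RNA per cell cannot be told apart.

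In DSS against control, 17 of the 38 measured members were called higher and 1 was called lower, while 9.45% of all measured genes were called higher and 5.81% lower. The glycolysis genes accounted for 8 of the higher calls among 26, with a median log2 ratio of 0.38, and for HK1, the lower call. ALDOA, one of the 8, had under 1 CPM in control and counts as measured only through the treated libraries. Without it, 7 of 25 glycolysis genes and 16 of 37 members were called higher, and the glycolysis median was 0.29. The HIF-responsive genes were called higher in 8 of 10 cases with a median log2 ratio of 0.71, and EPAS1 was the remaining call. The median log2 ratio of all measured genes was -0.01.

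In DSS with polydatin against DSS, 2 members were called higher and 3 lower, where 5.39% of all genes were called higher and 2.6% lower. All 5 are glycolysis genes. SLC2A1, LDHA and ENO1 were lower, and ENO2 and SLC16A3 were higher. The median log2 ratio was -0.23 for the glycolysis genes and -0.07 for the HIF-responsive genes, against -0.01 for all genes. The mean log2 ratio of the HIF-responsive genes had the other sign, at 0.02. Total-count scaling turned the HIF-responsive median to 0.02 and that of all genes to 0.08, and left the glycolysis median below 0 at -0.14. It also moved the calls over all genes to 1120 higher and 234 lower, against 797 and 384 with TMM factors. The DSS library stands in this comparison and in DSS against control, so a high DSS count raises the ratio to control and lowers the ratio of DSS with polydatin to DSS.

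In DSS with polydatin against control, which shares a library with each comparison above, 14 members were called higher and LDHB was called lower, where 16% of all genes were called higher and 12.4% lower. The glycolysis genes held 7 of the higher calls, with a median log2 ratio of -0.06 that total-count scaling turned to 0.05 and a mean of 0.24. ALDOA is again among them, and without it 6 of 25 glycolysis genes and 13 of 37 members were called higher. The HIF-responsive genes held 6 of 10, with a median of 0.69 and all 10 ratios above 1. Over all genes this comparison gave 2367 higher and 1829 lower calls with TMM factors, and 2932 and 1238 with total-count scaling, which moved the median of all genes to 0.09 from -0.02.

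**Figure D1:**
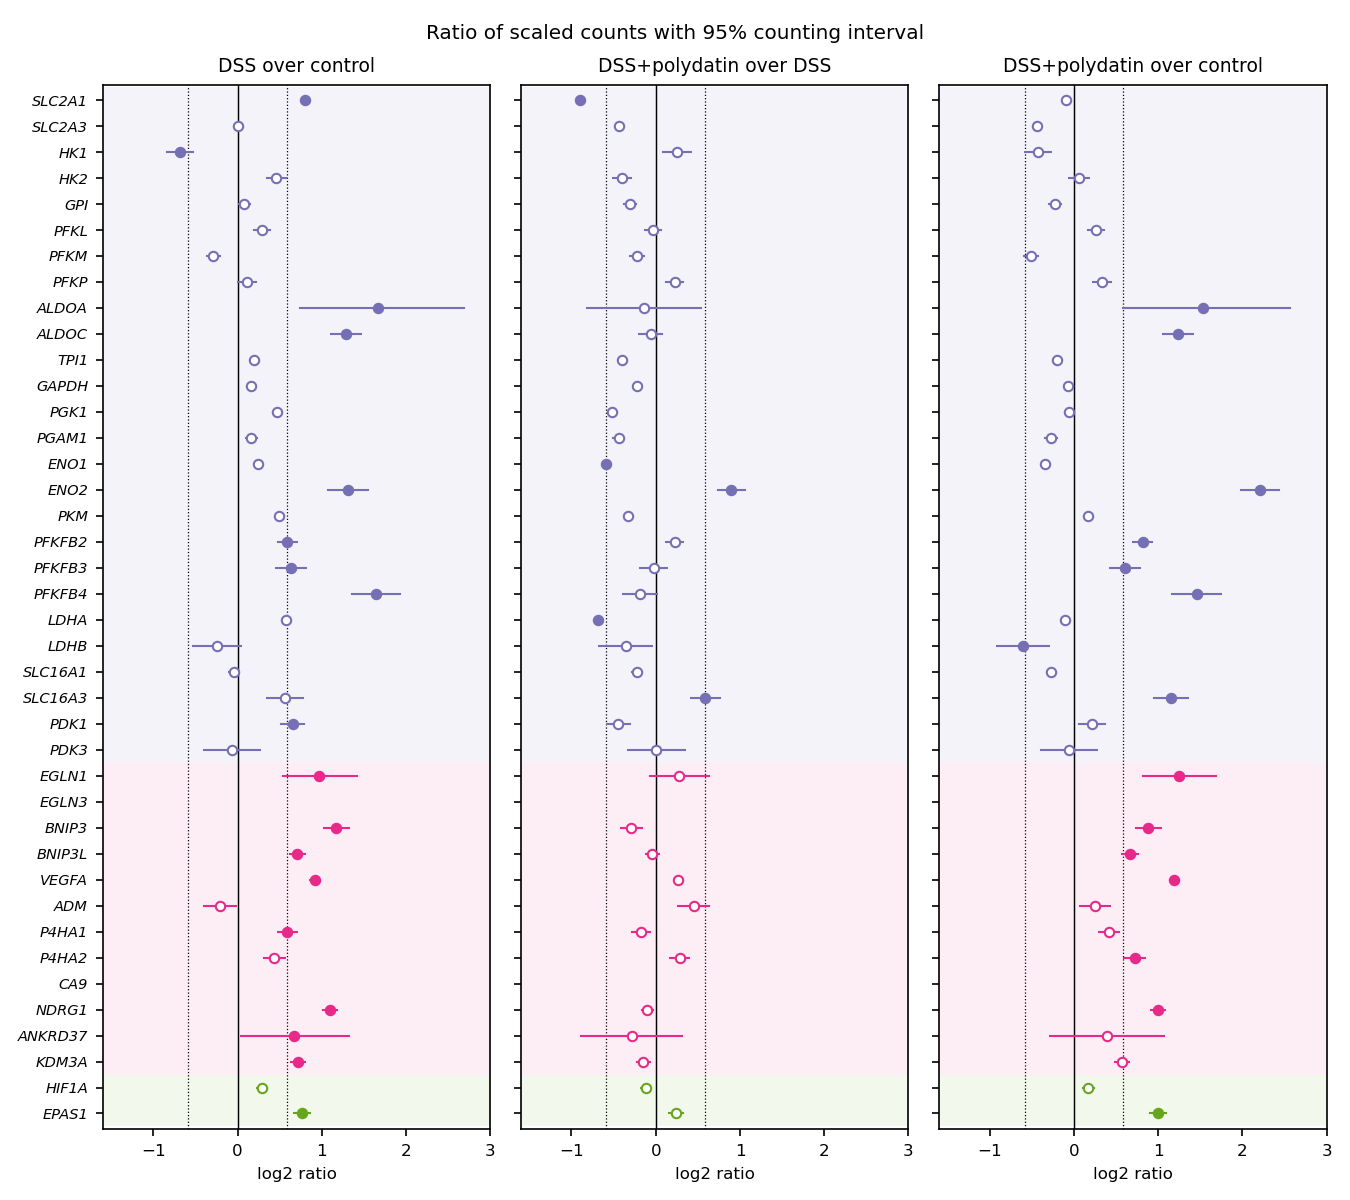
Log2 ratios of the measured members in the 3 comparisons, with exact 95% counting intervals, by role. HIF-responsive genes sit right of 0 in DSS with polydatin against control, at a median of 0.69, while glycolysis genes lie on both sides at a median of -0.06.

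Glucose enters through facilitative transporters. SLC2A1, which encodes GLUT1 (chromosome 1, 42925375 to 42959176, minus strand, GRCh38), had 629 CPM in DSS with polydatin, 1174 CPM in DSS and 672 CPM in control. It was 1.75 times control in DSS (1.71 to 1.79) and, with polydatin added, 0.536 times DSS (0.524 to 0.548), which put DSS with polydatin at 0.936 times control (0.912 to 0.961). The DSS library alone stood high. SLC2A3, which encodes the high-affinity transporter GLUT3, had 1572 CPM in DSS with polydatin, 2125 CPM in DSS and 2121 CPM in control. Its ratio was 1.00 in DSS against control (0.988 to 1.02) and 0.74 in DSS with polydatin against DSS (0.729 to 0.751). SLC2A3 has a near-identical copy, SLC2A14, so its count is uncertain. Per kilobase of exon, SLC2A3 was the more abundant of the pair in each library, and SLC2A1 held 34.3% of their joint level in DSS with polydatin, 41.9% in DSS and 29.2% in control.

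Hexokinases trap glucose by phosphorylation. HK1, the widely expressed form, had 35.9 CPM in DSS with polydatin, 30.1 CPM in DSS and 48.2 CPM in control. It was 0.625 times control in DSS (0.561 to 0.696), the only member called lower there. HK2, the inducible form, had 65.95 CPM in DSS with polydatin, 86.9 CPM in DSS and 63.1 CPM in control. Its ratio of 1.38 in DSS against control (1.28 to 1.49) fell short of the threshold, as did 0.759 in DSS with polydatin against DSS (0.703 to 0.819). HK1 was thus lowest and HK2 highest in the DSS library. HKDC1, a hexokinase that is no member, held most of the RNA of the 3 hexokinases per kilobase, at 68.0% in DSS with polydatin, 64.1% in DSS and 63.9% in control.

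GPI, which converts glucose 6-phosphate to fructose 6-phosphate, had 164.0 CPM in DSS with polydatin, 202 CPM in DSS and 192 CPM in control, with no call in any comparison. Phosphofructokinase commits the sugar to glycolysis and has 3 subunits. PFKM, the muscle form, had 121 CPM in DSS with polydatin, 141 CPM in DSS and 172 CPM in control. PFKP, the platelet form, had 98.9 CPM in DSS with polydatin, 84.7 CPM in DSS and 78.4 CPM in control. These were opposite orders over the libraries, though no ratio of either was called. PFKL, the liver form, had 104 CPM in DSS with polydatin, 107 CPM in DSS and 87.0 CPM in control. Per kilobase PFKM made up 34.0% of the 3 subunits in DSS with polydatin, 39.6% in DSS and 47.6% in control, and PFKP 42.0%, 35.9% and 32.7% in the same libraries. Exon length here is that of all annotated exons merged, 4836 bases for PFKP and 7318 bases for PFKM. The larger share of PFKP than of PFKM in DSS with polydatin rests on these lengths.

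The PFKFB enzymes make and break fructose 2,6-bisphosphate, an allosteric activator of phosphofructokinase. All 3 were called higher than control in both treated libraries, and none was called in DSS with polydatin against DSS. PFKFB4 (chromosome 3, 48517684 to 48562015, minus strand) had 21.0 CPM in DSS with polydatin, 23.9 CPM in DSS and 7.66 CPM in control. Its ratio to control was 2.74 in DSS with polydatin (2.25 to 3.36) and 3.12 in DSS (2.57 to 3.80). PFKFB2 had 102 CPM in DSS with polydatin, 87.5 CPM in DSS and 58.2 CPM in control, and its ratio of 1.504 in DSS lay at the threshold (1.39 to 1.63) and was not called with DESeq2 size factors or with libraries thinned to 1 depth. PFKFB3 had 35.9 CPM in DSS with polydatin, 36.5 CPM in DSS and 23.6 CPM in control, and removing the GC and length trend ended both of its calls. DESeq2 size factors ended the call in DSS with polydatin. The treated libraries lay close together and above control for PFKFB3 and PFKFB4, whereas PFKFB2 was highest in DSS with polydatin.

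Aldolase cleaves the 6-carbon sugar, and ALDOC, its brain form, had 48.3 CPM in DSS with polydatin, 50.4 CPM in DSS and 20.6 CPM in control. It was 2.35 times control in DSS with polydatin (2.08 to 2.66) and 2.445 times in DSS (2.17 to 2.76). ALDOA had only 36 counts in DSS with polydatin, 42 in DSS and 13 in control, and its 3.17-fold ratio in DSS against control carried an interval of 1.67 to 6.43. ALDOA shares 42.3% of its exon bases with the overlapping gene AC093512.2 on the same strand, so its low count is uncertain.

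The next steps turn triose phosphate into 2-phosphoglycerate, and per kilobase GAPDH was the most abundant member in each library. TPI1, the triose isomerase, had 613 CPM in DSS with polydatin, 806.5 CPM in DSS and 704 CPM in control. GAPDH, which reduces NAD at the next step, had 2362 CPM in DSS with polydatin, 2766 CPM in DSS and 2474 CPM in control. PGK1, the first ATP-forming enzyme of the pathway, had 483 CPM in DSS with polydatin, 694 CPM in DSS and 503 CPM in control. PGAM1, the mutase that follows, had 171 CPM in DSS with polydatin, 231 CPM in DSS and 207 CPM in control. For each of these 4 genes the DSS library was highest and DSS with polydatin lowest, and no ratio was called. PGK1 came nearest, at 1.38 times control in DSS (1.34 to 1.42) and, with polydatin added, 0.696 times DSS (0.677 to 0.715). GAPDH shares 14.2% of its exon bases with an antisense gene, and the strand setting of the counting is not given in the sources used here.

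Enolase makes phosphoenolpyruvate, and its 2 members ran in opposite directions with polydatin added. ENO1 (chromosome 1, 8861000 to 8879250, minus strand), the ubiquitous form, had 733 CPM in DSS with polydatin, 1103 CPM in DSS and 933 CPM in control. ENO2 (chromosome 12, 6913745 to 6923698, plus strand), the form typical of neurons, had 51.3 CPM in DSS with polydatin, 27.6 CPM in DSS and 11.1 CPM in control. In DSS with polydatin against DSS, ENO1 was 0.664-fold (0.650 to 0.679) and called lower, while ENO2 was 1.86-fold (1.67 to 2.08) and called higher. Total-count scaling ended the ENO1 call, at a log2 ratio of -0.50 against -0.59, as did removing a trend on GC content and length, at -0.57. ENO2 was 2.48 times control in DSS (2.10 to 2.93) and 4.61 times control in DSS with polydatin (3.95 to 5.40), the highest ratio to control of any member. Its share of enolase RNA per kilobase was 7.85% in DSS with polydatin, 2.97% in DSS and 1.44% in control, so ENO1 remained the bulk of the RNA.

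PKM, the pyruvate kinase of proliferating and muscle cells, had 874 CPM in DSS with polydatin, 1101 CPM in DSS and 782 CPM in control. It was not called in any comparison, at 1.41 times control in DSS (1.38 to 1.44) and, with polydatin added, 0.794 times DSS (0.778 to 0.811). Gene-level counts do not separate its M1 and M2 isoforms.

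LDHA reduces pyruvate to lactate. LDHA (chromosome 11, 18394388 to 18408425, plus strand) had 862 CPM in DSS with polydatin, 1390 CPM in DSS and 929 CPM in control. With polydatin added it was 0.62 times DSS (0.607 to 0.632), a lower call, and 0.927 times control (0.907 to 0.948). Its ratio of 1.496 in DSS against control (1.47 to 1.53), a log2 ratio of 0.58, lay just under the threshold. That ratio passed the threshold with total-count scaling and with the GC and length trend removed. Like SLC2A1, LDHA was high in the DSS library alone. LDHB, which favours the reverse reaction, had 8.43 CPM in DSS with polydatin, 10.8 CPM in DSS and 12.8 CPM in control. It was 0.66 times control in DSS with polydatin (0.533 to 0.815), and it shares 33.4% of its exon bases with the same-strand gene AC010197.2. Total-count scaling ended the LDHB call, as did removing the GC and length trend. LDHA held 98.0% of lactate dehydrogenase RNA per kilobase in DSS with polydatin, 98.4% in DSS and 97.2% in control. The overlap makes the low LDHB count, and so these shares, uncertain.

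Lactate leaves through monocarboxylate transporters. SLC16A3, which encodes the exporter MCT4, had 37.8 CPM in DSS with polydatin, 25.2 CPM in DSS and 17.0 CPM in control. It was 2.22 times control in DSS with polydatin (1.94 to 2.55), and its ratio of 1.503 to DSS (1.33 to 1.70) lay at the threshold and was not called with DESeq2 size factors, thinning or the GC and length trend removed. SLC16A1, which encodes MCT1, had 271 CPM in DSS with polydatin, 316 CPM in DSS and 327 CPM in control, with no call. The 2 transporters thus ran in opposite orders, and SLC16A3 held 7.60% of their RNA per kilobase in DSS with polydatin, 4.49% in DSS and 2.98% in control.

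PDK1 and PDK3 shut pyruvate dehydrogenase and so keep pyruvate out of mitochondria. PDK1 had 42.4 CPM in DSS with polydatin, 57.6 CPM in DSS and 36.6 CPM in control, and was 1.57 times control in DSS (1.43 to 1.74). With polydatin added it stood at 0.736 times DSS (0.669 to 0.809) and was not called. PDK3 lay between 8.15 and 8.54 CPM in all libraries.

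**Figure D2:**
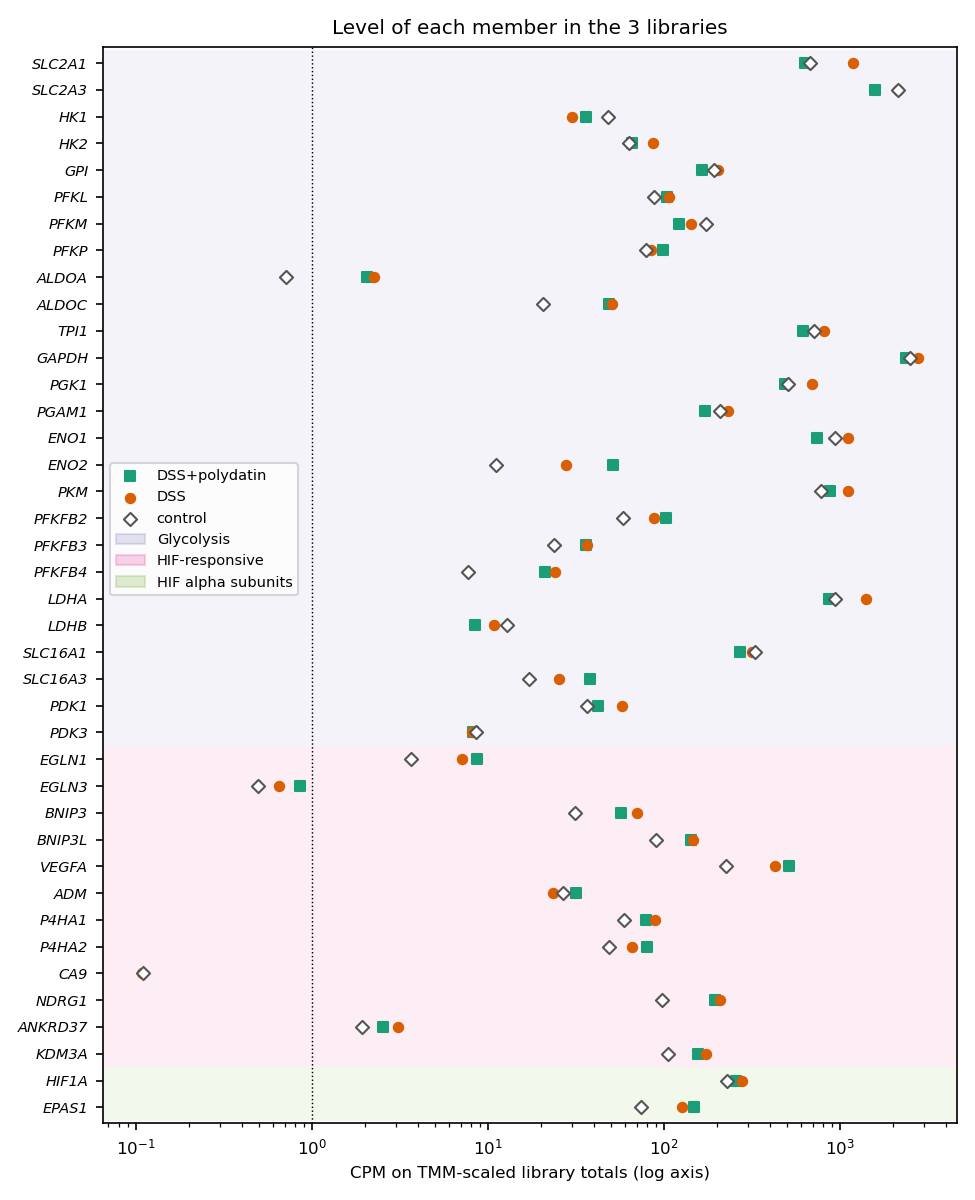
Level of each of the 40 members in the 3 libraries, in CPM on a log axis, by role; each point is 1 library, EGLN3 and CA9 lie below 1 CPM, CA9 in DSS with polydatin is at 0 and not drawn, and the DSS points of SLC2A3 and CA9 lie under those of control. SLC2A1 and LDHA are highest in DSS at 1174 and 1390 CPM, whereas VEGFA, ENO2 and EPAS1 are lowest in control at 225, 11.1 and 73.9 CPM.

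The glycolysis genes were also sorted by mean CPM, a division chosen after their values were seen. All 12 with a mean of at least 100 CPM over the libraries had a ratio below 1 in DSS with polydatin against DSS, at a median log2 ratio of -0.42, where 1693 of 2445 genes of that abundance were below 1 at a median of -0.11. Of the 14 less abundant glycolysis genes, 8 were below 1, at a median of -0.03 against 0.02 for the 12347 genes of that abundance. Against control, DSS with polydatin gave a median of -0.21 with no call for the 12 abundant genes, and 0.47 with 7 higher calls and 1 lower for the 14 others. All genes at 100 CPM or more had a median of -0.15 there, with 7.77% called higher and 14.4% lower, so the abundant glycolysis genes lay near their background. Genes under 100 CPM had a median of 0.02, with 17.6% called higher and 11.95% lower. The 12 are SLC2A1, SLC2A3, GPI, PFKM, TPI1, GAPDH, PGK1, PGAM1, ENO1, PKM, LDHA and SLC16A1, and the others include the PFKFB enzymes, ALDOC, ENO2 and SLC16A3. ALDOA, which counts as measured only through the treated libraries, is also among the others and their 7 higher calls. HK2 and PDK1, also among the others, were highest in the DSS library, so the division did not separate all genes of that pattern. CPM rises with transcript length as well as with abundance.

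Among the HIF alpha subunits, which bind the beta subunit to form the active factor, EPAS1 (encoding HIF-2 alpha, chromosome 2, 46293667 to 46386703, plus strand) had 148 CPM in DSS with polydatin, 125 CPM in DSS and 73.9 CPM in control. It was 2.00 times control in DSS with polydatin (1.88 to 2.14) and 1.70 times in DSS (1.59 to 1.82). HIF1A had 255 CPM in DSS with polydatin, 277 CPM in DSS and 226 CPM in control, with no call. HIF1A remained the more abundant per kilobase in each library. Since the subunits are controlled mainly through protein breakdown, these RNA levels do not give the amount of factor.

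The prolyl hydroxylases are both the oxygen sensors of the pathway and its targets. EGLN1, which encodes PHD2, had 8.66 CPM in DSS with polydatin, 7.12 CPM in DSS and 3.64 CPM in control. It was 2.38 times control in DSS with polydatin (1.77 to 3.23) and 1.96 times in DSS (1.45 to 2.68). EGLN3, which encodes PHD3, had 15 counts in DSS with polydatin, 12 in DSS and 9 in control, and every interval between its libraries included 1.

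BNIP3 and BNIP3L are receptors that mark mitochondria for removal by autophagy. BNIP3 (chromosome 10, 131966455 to 131982013, minus strand) had 57.2 CPM in DSS with polydatin, 69.9 CPM in DSS and 31.0 CPM in control. It was 1.85 times control in DSS with polydatin (1.66 to 2.05) and 2.25 times in DSS (2.04 to 2.49). BNIP3L had 142 CPM in DSS with polydatin, 146 CPM in DSS and 89.4 CPM in control, and was called higher than control in both. Neither was called in DSS with polydatin against DSS, where BNIP3 stood at 0.819 (0.753 to 0.890) and BNIP3L at 0.972 (0.920 to 1.03).

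VEGFA, the main growth factor for blood vessels (chromosome 6, 43770184 to 43786487, plus strand), had 514 CPM in DSS with polydatin, 426 CPM in DSS and 225 CPM in control. Its ratio to control was 2.28 in DSS with polydatin (2.20 to 2.37) and 1.89 in DSS (1.82 to 1.96), and its ratio of 1.21 to DSS was not called (1.17 to 1.24). ADM, which encodes the vasodilator adrenomedullin, had 31.8 CPM in DSS with polydatin, 23.3 CPM in DSS and 26.8 CPM in control. ADM was the one measured HIF-responsive gene with a ratio below 1 in DSS against control, at 0.869 (0.762 to 0.992), and had no call.

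P4HA1 and P4HA2 are catalytic subunits of the enzyme that hydroxylates collagen. P4HA1 had 79.0 CPM in DSS with polydatin, 89.3 CPM in DSS and 59.3 CPM in control, and was called higher in DSS against control, at 1.51 (1.39 to 1.63), though not with DESeq2 size factors. With the GC and length trend removed, P4HA1 was also called higher in DSS with polydatin against control (log2 ratio 0.68 against 0.41). P4HA2 had 80.3 CPM in DSS with polydatin, 65.85 CPM in DSS and 48.7 CPM in control, and was called higher in DSS with polydatin against control, at 1.65 (1.51 to 1.80). The 2 subunits were thus highest in different libraries.

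Of the other targets, NDRG1, a stress-responsive gene of epithelial differentiation, had 193 CPM in DSS with polydatin, 207 CPM in DSS and 96.6 CPM in control. It was 2.00 times control in DSS with polydatin (1.89 to 2.12) and 2.15 times in DSS (2.03 to 2.27). KDM3A, a histone H3 lysine demethylase, had 156 CPM in DSS with polydatin, 173 CPM in DSS and 105 CPM in control. It was called in DSS at 1.65 times control (1.55 to 1.74). In DSS with polydatin its ratio of 1.49 to control (1.40 to 1.58) was just short of the threshold. Total-count scaling took that ratio past the threshold, as did removing the GC and length trend. ANKRD37, an ankyrin repeat gene, had 2.52 CPM in DSS with polydatin, 3.08 CPM in DSS and 1.93 CPM in control, and was called higher in DSS against control at 1.60 (1.03 to 2.51), though not with thinned libraries. UFSP2 on the other strand overlaps 35.2% of its exon bases. CA9, the membrane carbonic anhydrase often used as a marker of hypoxia, had 0 counts in DSS with polydatin, 2 in DSS and 2 in control, at or under the 3 counts (0.172, 0.162 and 0.165 CPM) that a count of 0 allows. ARHGEF39 on the other strand overlaps 38.5% of its exon bases. For NDRG1, KDM3A and ANKRD37 the DSS library was highest and control lowest.

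Other genes of the same pathways were also counted, from lists chosen with earlier results of these data known. Over all measured genes, 9.45% were called higher and 5.81% lower in DSS against control. The shares were 5.39% and 2.6% in DSS with polydatin against DSS, and 16% and 12.4% in DSS with polydatin against control. Of 28 measured further hypoxia-responsive genes, 10 were called higher and 2 lower in DSS against control, at a median log2 ratio of 0.33. In DSS with polydatin against DSS 3 were called higher and 1 lower, and against control 10 higher and 2 lower. LOX and CXCR4, among the higher calls in DSS against control, had 0.496 and 0.991 CPM in control. Both count as measured only through the treated libraries. CXCR4 is also among the higher calls in DSS with polydatin against control. PLOD2, a collagen lysyl hydroxylase, had 66.01 CPM in DSS with polydatin, 72.9 CPM in DSS and 20.5 CPM in control. BHLHE40, a transcriptional repressor, had 26.0 CPM in DSS with polydatin, 20.3 CPM in DSS and 7.10 CPM in control. RORA, a nuclear receptor, had 12.6 CPM in DSS with polydatin, 10.0 CPM in DSS and 2.31 CPM in control. All 3 were called higher than control in both treated libraries. DDIT4, an inhibitor of mTOR signalling, went the other way, with 32.9 CPM in DSS with polydatin, 21.4 CPM in DSS and 54.5 CPM in control.

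Of 11 measured regulators of HIF itself, EGLN2 (a prolyl hydroxylase) was called higher in DSS, at 1.60 times control (1.31 to 1.96), and in DSS with polydatin at 2.23 times control (1.85 to 2.70). No other regulator was called in any comparison. EGLN2 alone makes 9.09% called higher. Over all genes 9.45% were called higher in DSS and 16% in DSS with polydatin, each against control. Of 7 measured regulators of glycolysis genes other than HIF, 2 were called higher and 1 lower in DSS against control, 2 higher and 1 lower in DSS with polydatin against DSS, and 1 higher in DSS with polydatin against control. MYC, a transcription factor that also drives glycolytic genes, had 120.3 CPM in DSS with polydatin, 217 CPM in DSS and 163 CPM in control, and with polydatin added was 0.555 times DSS (0.527 to 0.586). MLXIPL, the carbohydrate response factor ChREBP, had 19.3 CPM in DSS with polydatin, 12.8 CPM in DSS and 4.02 CPM in control, and was called higher in all 3 comparisons. Its ratio of 1.504 in DSS with polydatin against DSS lay at the threshold and was 1.496 with DESeq2 size factors, under it. TXNIP, a ChREBP target that restrains glucose uptake, had 69.6 CPM in DSS with polydatin, 45.1 CPM in DSS and 60.2 CPM in control, and was called higher in DSS with polydatin against DSS at 1.54 (1.41 to 1.69). TIGAR, a phosphatase of fructose 2,6-bisphosphate, was called higher in DSS against control at 1.53 (1.25 to 1.87). Whether any of these regulators bears on the members' values was not tested.

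Of 8 measured other isoenzymes and glucose transporters, 2 were called lower in DSS against control, none was called in DSS with polydatin against DSS, and 1 was called higher and 3 lower in DSS with polydatin against control. BPGM, which makes 2,3-bisphosphoglycerate, was 1 of those 3, with 8.66 CPM in DSS with polydatin, 10.8 CPM in DSS and 14.0 CPM in control. SLC2A2, among the lower calls in both comparisons with control, had 0.918 CPM in each treated library and 2.15 CPM in control. It counts as measured only through the control library. Of 13 measured genes of gluconeogenesis and the glucose phosphate branch, 3 were called higher and 1 lower in DSS against control, 2 higher in DSS with polydatin against DSS, and 3 higher and 2 lower in DSS with polydatin against control. In that last comparison 23.1% were thus called higher and 15.4% lower, against 16% and 12.4% of all genes. For the 8 isoenzymes and transporters the shares there were 12.5% and 37.5%. PYGM, of the glucose phosphate branch, had 1.38 CPM in DSS with polydatin, 0.486 CPM in DSS and 0.606 CPM in control. It counts as measured only through DSS with polydatin, and is among the higher calls of that library against DSS and against control. PC, which carboxylates pyruvate, had 31.9 CPM in DSS with polydatin, 28.3 CPM in DSS and 10.9 CPM in control. PCK2, which makes phosphoenolpyruvate in mitochondria, had 59.7 CPM in DSS with polydatin, 36.2 CPM in DSS and 107 CPM in control. It was the lower call in DSS, at 0.339 times control (0.310 to 0.370), and one of the higher calls with polydatin added, at 1.65 times DSS (1.497 to 1.82). PGM1, which interconverts glucose phosphates, was called higher in DSS at 1.64 times control (1.46 to 1.84), and PYGL, the liver glycogen phosphorylase, was lower in DSS with polydatin at 0.541 times control (0.513 to 0.570).

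Of 11 measured genes of pyruvate entry into mitochondria, none was called in DSS against control or in DSS with polydatin against DSS, and 1 was called higher and 2 lower in DSS with polydatin against control. Those calls were 9.09% and 18.2% of the list, against 16% and 12.4% of all genes. PDHA1, a catalytic subunit of pyruvate dehydrogenase, had 136 CPM in DSS with polydatin, 183 CPM in DSS and 234 CPM in control. DLD, the shared dihydrolipoamide dehydrogenase subunit, had 109 CPM in DSS with polydatin, 137 CPM in DSS and 201 CPM in control. Their ratios in DSS with polydatin against control were 0.583 (0.554 to 0.613) for PDHA1 and 0.542 (0.512 to 0.573) for DLD. PDP1, the phosphatase that reactivates the complex, was called higher there at 1.59 (1.40 to 1.80).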

How the data were processed

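Gene-level read counts of 3 Caco-2 libraries, 1 per group, were used. Per the labels' protocols, Trizol RNA went into VAHTS Universal V6 libraries. The submitters' processing notes name HISAT2 and GRCh38. How reads were counted, with which annotation and strand rule, is not given in the sources used here. Those counts, as the authors deposited them, are whole numbers with no normalization. Symbols were matched for 60463 of 60664 identifiers. Coordinates, exon length and overlaps came from GENCODE 29, start-site windows from RefSeq (the window listed first for each gene). Exon length is the merged length of all annotated exons of a gene, not that of the transcripts present.

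Counts were scaled by TMM factors (edgeR 4.0.16, R 4.3.3). Ratios are of scaled counts, with exact Clopper-Pearson intervals at 95% on the counts (scipy 1.17.1). Reads are not independent molecules, so intervals cover counting error only. Where a library had 0 counts, 0.5 was added to both. Genes needed 1 CPM in at least 1 library. Ratios were tested on simulated data. The members and pathway lists were chosen with earlier results of these data known. All members are named. Of the pathway lists, called genes at 10 CPM or more are named, up to the 3 highest and 3 lowest per list and comparison, and MYC by choice. LOX, CXCR4, PYGM and SLC2A2 are named because they were called and had under 1 CPM in at least 1 library. One marker gene is not reported here.

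Alternatives were size factors from DESeq2 1.42.0, scaling to total counts, a filter at 10 CPM or none, thinning to the smallest library, 2 counts added, a 2-fold rule and means for medians. A further one was removal of a trend on GC content and length of the longest transcript (statsmodels 0.14.6). Leaving out ALDOA or VEGFA, and other scalings of MLXIPL, were chosen after seeing the data.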

Additional observations from a re-analysis of the deposited data

How the results depend on the processing

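With 1 library per group, no replicate spread is known, and the counting intervals leave out the variation between cultures. No paired analysis was possible because each group has 1 library. Calls near 1.5-fold depend on the scaling. In DSS against control, removing the trend on GC content and length gave a glycolysis median log2 ratio of 0.26, and a 2-fold rule left 6 members higher and 0 lower. In DSS with polydatin against DSS, total-count scaling gave a glycolysis median of -0.14. There, 1 member was higher with DESeq2 size factors, with thinning and with the trend removed, ENO2 in each case, and a 2-fold rule left 0 higher and 0 lower. In DSS with polydatin against control, 0 members were lower with total-count scaling and with the trend removed, a 2-fold rule left 8 higher and 0 lower, and the glycolysis mean was 0.24 where the median was -0.06. Under the alternatives tried, every other median stayed between the medians of its members' lower and upper counting limits, though total-count scaling turned the sign of the medians given with it above. Every other count of member calls stayed within 1.5 times. Of 114 member ratios, 39 moved outside their counting interval with total-count scaling, 45 with the trend removed and 4 with DESeq2 size factors. The cause was not tested. None of the 114 did so with no filter, thinning or 2 counts added, nor did any of the 102 left at 10 CPM.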
